A study of Mus musculus with 24 samples.

Results

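7 genes of hippocampal corticosteroid and corticotropin-releasing hormone (CRH) signalling were followed by name in a table of 46983 genes: *Nr3c1*, *Nr3c2*, *Hsd11b1*, *Ncoa1*, *Ncoa2*, *Crhr1* and *Crhbp*. All 7 were found once in the table and all 7 passed the filter on low counts. At a false discovery rate of 0.02 in edgeR's quasi-likelihood test, 0 of the 7 passed for genotype, where 0.136% of all tested genes did. For early life stress (ELS) in either genotype and for the interaction of both factors, 0 of the 7 and 0% of all tested genes passed. Their levels did vary between mice: within groups, *Nr3c1* was related to markers of astrocytes, of choroid plexus and of other cell types, and *Crhbp*, the most variable of the 7, was related to interneuron markers.

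The measurement was bulk mRNA sequencing of hippocampal punches, dorsal and ventral together, from 24 adult female C57BL/6 mice, 6 in each of 4 groups. All mice carried the floxed *Fkbp5* gene. The *Fkbp5* lox/lox control and *Fkbp5* lox/lox ELS groups had no Cre and served as wild types, whereas the *Fkbp5* Nex control and *Fkbp5* Nex ELS groups also carried Nex-Cre, which deletes *Fkbp5* in glutamatergic neurons of the forebrain from embryonic life but spares the dentate gyrus. The ELS groups were raised with limited bedding and nesting material in the first postnatal days, the control groups were raised in standard conditions, and mice of this cohort underwent behavioural testing and magnetic resonance imaging as adults before the brains were collected. ELS or control rearing was given to a dam with her whole litter. The litter of each mouse is not given in the sources used here, so the tests treat all mice as independent. The standard errors and intervals of the ELS and interaction values may therefore be too narrow. The comparisons ask whether loss of FKBP51, a co-chaperone that lowers the sensitivity of the glucocorticoid receptor, and ELS leave a lasting mark on these genes, alone or together.

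Corticosterone, the main glucocorticoid of the mouse, acts in the hippocampus through a pair of nuclear receptors. The mineralocorticoid receptor (MR) binds it with high affinity and is largely occupied at rest, whereas the glucocorticoid receptor (GR) is engaged when corticosterone rises after stress, and both recruit coactivators of the p160 family to switch on target genes. CRH is the peptide that starts the hormonal stress response in the hypothalamus, but it is also made by hippocampal interneurons and acts locally on its receptor, while a secreted binding protein limits the free peptide.

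Total counts ranged from 18347283 to 26555623 per mouse, and 16209 genes were tested. No sample in any group repeated another. *Fkbp5* itself ranged from 47.7 to 63.4 CPM (read counts scaled to library size, with TMM factors that correct for library composition) in the 12 *Fkbp5* lox/lox mice and from 8.71 to 26.5 CPM in the 12 *Fkbp5* Nex mice, without overlap (log2 fold change -2.03, SE 0.09, Benjamini-Hochberg adjusted p = 2.81e-12 by edgeR's quasi-likelihood test). Markers of hippocampal excitatory neurons were present in every mouse, with *Slc17a7*, the vesicular glutamate transporter, between 948 and 1672 CPM. The makeup of the punches was not equal. The summed level of 6 dentate granule cell markers had a median of 362 CPM in lox/lox control and 387 CPM in lox/lox ELS mice, above the 199 CPM of Nex control and the 194 CPM of Nex ELS mice, and *Ttr*, a choroid plexus transcript, ran from 0.227 to 4235 CPM. Mouse 12 (Nex control) had the highest astrocyte score of all 24 mice, at 2.40 SD units, and mouse 8 (lox/lox ELS) had the highest dentate granule score, at 2.14, together with the lowest CA1 score, at -2.69. In bulk tissue, fewer cells of a type and less RNA per cell cannot be told apart.

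Per length of exon, MR was the most abundant of the 7 transcripts and the CRH receptor the least. On the scale of CPM per kb, the medians over 24 mice were 29.5 for *Nr3c2*, 17.6 for *Ncoa1*, 10.7 for *Nr3c1*, 8.56 for *Crhbp*, 6.54 for *Ncoa2*, 5.66 for *Hsd11b1* and 3.75 for *Crhr1*, where the median of all tested genes was 4.68. *Nr3c2* exceeded *Ncoa1* in 24 of 24 mice, *Ncoa1* exceeded *Nr3c1* in 24 of 24 and *Hsd11b1* exceeded *Crhr1* in 24 of 24. The middle of the order was less fixed: *Nr3c1* exceeded *Crhbp* in 19 of 24 mice, *Crhbp* exceeded *Ncoa2* in 20 of 24 and *Ncoa2* exceeded *Hsd11b1* in 16 of 24. The length is that of all annotated exons of a gene merged, 15642 bases for *Ncoa2* and 1800 for *Crhbp*. The order depends on this length: in CPM the medians were 102 for *Ncoa2* and 15.4 for *Crhbp*.

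**Figure D1:**
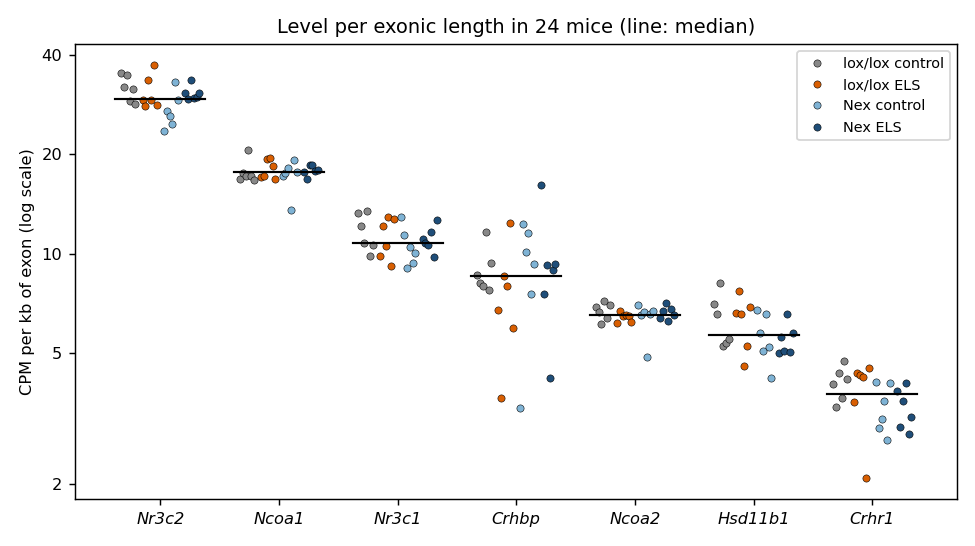
Level of each gene in CPM per kb of exon (log axis) in 24 mice, coloured by group, with a line at the median. *Nr3c2* lies highest with a median of 29.5 and *Crhr1* lowest with 3.75, and *Crhbp* has the widest spread of mice.

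The 7 genes also differed in how constant they were between mice. The coefficient of variation (CV) of CPM over 24 mice was 7.02% for *Ncoa2* and 7.59% for *Ncoa1*, below the median of 12.6% over all tested genes. It was 11.1% for *Nr3c2* and 12.3% for *Nr3c1*, close to that median, and 17.0% for *Hsd11b1* and 17.8% for *Crhr1*. *Crhbp* had a CV of 33.3%, higher than that of 90.4% of tested genes. Counting error alone would give *Crhbp* a CV of 5.46% and *Crhr1*, which had 123 to 289 counts per mouse, a CV of 7.17%, so the spread between mice exceeded counting error in both.

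*Nr3c1* encodes GR (ENSMUSG00000024431, chr18:39410545-39519421 on the minus strand of GRCm38, with no overlapping annotated gene). In lox/lox control mice its lowest, median and highest levels were 75.8, 87.8 and 103 CPM, and in lox/lox ELS mice they were 70.6, 87.1 and 99.5 CPM. In Nex control mice they were 69.5, 78.9 and 99.4 CPM, and in Nex ELS mice 75.1, 83.8 and 97.5 CPM. The 4 groups overlapped over nearly their whole range. The group means were 89.7 ± 11.5, 86.2 ± 12.1, 81.0 ± 11.1 and 85.2 ± 7.66 CPM (SD, n = 6 each) in the same order. GR mRNA differed between genotypes by a log2 fold change of -0.03 (SE 0.05), a change of -2.30% with a 95% interval from -8.80% to 4.66%, and by -0.08 (SE 0.07) when the model held no surrogate variables. After ELS it differed by -0.11 (SE 0.07) in lox/lox mice and by 0.02 (SE 0.07) in Nex mice, or by -0.06 and 0.07 without surrogate variables. The difference between these ELS effects, lox/lox minus Nex, was -0.13 (SE 0.10), with a 95% interval from -0.34 to 0.08.

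*Nr3c2* encodes MR (ENSMUSG00000031618, chr8:76899442-77245012 on the plus strand; 247 of its exonic bases lie opposite the non-coding gene *Gm10649*, and without a stated strand their reads cannot be told apart). In lox/lox control mice its lowest, median and highest levels were 184, 206 and 228 CPM, and in lox/lox ELS mice they were 181, 189 and 242 CPM. In Nex control mice they were 152, 172 and 215 CPM, and in Nex ELS mice 189.9, 196 and 217 CPM. Nex control mice were lowest as a group, with 4 of the 6 under 181 CPM, the lowest level of any mouse in the other groups, yet the ranges of all 4 groups overlapped. Means were 206 ± 18.4, 200.1 ± 24.4, 176 ± 22.6 and 198 ± 9.95 CPM (SD, n = 6 each). Of the 28 tests on the 7 genes, genotype on *Nr3c2* gave the smallest p: the log2 fold change was -0.13 (SE 0.04), a change of -8.41% with a 95% interval from -13.5% to -3.01%, but it did not pass after adjustment over all genes (unadjusted p = 0.00435, adjusted p = 0.205 by edgeR's quasi-likelihood test). Leaving out each mouse in turn moved this value between -0.17 and -0.08, nearest to 0 without mouse 12, and the lowest adjusted p in these runs was 0.102. The ELS values were 0.0058 (SE 0.06) in lox/lox and 0.08 (SE 0.06) in Nex mice, with an interaction of -0.07 (SE 0.08). These values depended on the model: without surrogate variables the ELS value in Nex mice was 0.17 (SE 0.08, unadjusted p = 0.0481, adjusted p = 0.9999 by edgeR's quasi-likelihood test) and the interaction -0.21 (SE 0.11), and without mouse 74 (lox/lox control) they were 0.17 and -0.23. Within groups, *Nr3c2* tended to be lower with more dentate granule marker RNA (r = -0.52), which did not pass adjustment. Between genotypes the direction was the other one: the dentate markers had lower medians in Nex mice, and the *Nr3c2* value was also below 0. The part of these markers in the genotype value was not tested.

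The ratio of MR to GR mRNA, taken per exonic length within each mouse, describes which receptor mRNA was more abundant, not receptor protein or activity. Its medians were 2.67 in lox/lox control, 2.64 in lox/lox ELS, 2.62 in Nex control and 2.75 in Nex ELS mice. Single mice reached from 1.82 in mouse 12 (Nex control) to 4.07 in mouse 72 (lox/lox ELS). The ratio was not tested between groups. MR mRNA per length exceeded GR mRNA in 24 of 24 mice.

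*Hsd11b1* encodes 11β-hydroxysteroid dehydrogenase type 1, the enzyme that regenerates active corticosterone from its inert 11-keto form inside cells (ENSMUSG00000016194, chr1:193221634-193264075, minus strand). Its lowest, median and highest levels were 22.3, 25.7 and 34.7 CPM in lox/lox control mice and 19.4, 28.0 and 32.7 CPM in lox/lox ELS mice. They were 17.8, 23.2 and 28.6 CPM in Nex control and 21.3, 22.6 and 27.9 CPM in Nex ELS mice. The groups overlapped, and the 4 highest mice all carried lox/lox without Cre. The genotype log2 fold change was -0.09 (SE 0.06, adjusted p = 0.571 by edgeR's quasi-likelihood test) with a 95% interval from -0.21 to 0.03, and it was -0.18 (SE 0.09) when the model held no surrogate variables. The ELS values were -0.07 (SE 0.09) in lox/lox and 0.07 (SE 0.09) in Nex mice.

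*Ncoa1* and *Ncoa2* encode the p160 coactivators SRC-1 and SRC-2 (also called TIF2 or GRIP1), which bind steroid receptors that carry hormone and bring in histone acetyltransferases. *Ncoa1* (ENSMUSG00000020647, chr12:4247362-4477182, minus strand, with 68 exonic bases opposite *4921501I09Rik*) had medians of 147, 152, 151 and 153 CPM in lox/lox control, lox/lox ELS, Nex control and Nex ELS mice. *Ncoa2* (ENSMUSG00000005886, chr1:13139105-13374083, minus strand) had medians of 106, 101, 103 and 103 CPM in the same order. Mouse 52 (Nex control) had the lowest value for both coactivators, at 116 CPM for *Ncoa1* and 76.0 CPM for *Ncoa2*. The other 23 mice lay between 143 and 177 CPM for *Ncoa1* and between 95.7 and 112 CPM for *Ncoa2*. Mouse 52 also had the fewest genes with any count of all 24 mice, 22868. Mouse 68 (lox/lox ELS) had nearly as few, 22873, but had 167 CPM for *Ncoa1* and 102 CPM for *Ncoa2*. The coactivators were the most narrowly bounded of the 7 genes: the 95% interval of the genotype change ran from -3.14% to 4.51% for *Ncoa2* and from -6.16% to 4.56% for *Ncoa1*. The ELS log2 fold changes were 0.04 (SE 0.06) and -0.03 (SE 0.06) for *Ncoa1* in lox/lox and Nex mice. For *Ncoa2* they were -0.04 (SE 0.04) and 0.01 (SE 0.04).

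*Crhr1*, the receptor through which CRH acts in the hippocampus, is a G-protein coupled receptor (ENSMUSG00000018634, chr11:104132855-104175523, plus strand). Its lowest, median and highest levels were 8.44, 10.1 and 11.6 CPM in lox/lox control and 5.13, 10.5 and 11.1 CPM in lox/lox ELS mice. They were 6.72, 8.25 and 10.1 CPM in Nex control and 7.004, 8.34 and 9.99 CPM in Nex ELS mice. Medians were lower in both Nex groups, and 7 of the 12 lox/lox mice lay above the highest Nex mouse, while the lowest mouse of all was lox/lox. That lowest level belonged to mouse 72 (lox/lox ELS), which also had the lowest *Nr3c1* of its group and the highest *Nr3c2* of all mice. *Crhr1* had the largest ELS value of the 7 genes, a log2 fold change of -0.26 (SE 0.16, adjusted p = 0.944 by edgeR's quasi-likelihood test) in lox/lox mice, against 0.04 (SE 0.16) in Nex mice, and an interaction of -0.30 (SE 0.21). The value in lox/lox mice shrank to -0.07 without mouse 72 and to -0.09 when the model held no surrogate variables. The genotype value was -0.14 (SE 0.10), with a 95% interval from -0.36 to 0.07.

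*Crhbp* encodes the secreted CRH-binding protein (ENSMUSG00000021680, chr13:95431371-95444924, minus strand). In lox/lox control mice its lowest, median and highest levels were 14.0, 15.0 and 20.97 CPM, and in lox/lox ELS mice they were 6.55, 13.3 and 22.3 CPM. In Nex control mice they were 6.14, 17.5 and 22.1 CPM, and in Nex ELS mice 7.55, 16.4 and 29.0 CPM. The spread was widest here: 1 mouse in each of 3 groups lay under 8 CPM (mouse 8, mouse 12 and mouse 60), the highest mouse (mouse 10, Nex ELS) had 4.72 times the level of the lowest, and lox/lox controls stayed within a narrow band. The genotype log2 fold change was -0.20 (SE 0.09, unadjusted p = 0.0316, adjusted p = 0.394 by edgeR's quasi-likelihood test), with a 95% interval from -0.38 to -0.02. This direction depended on the model, since without surrogate variables the value was 0.16 (SE 0.20). The means of *Crhbp* were 16.1 ± 2.62, 13.6 ± 5.27, 16.3 ± 5.80 and 16.6 ± 6.99 CPM (SD, n = 6 each) in lox/lox control, lox/lox ELS, Nex control and Nex ELS mice. The ELS values were -0.11 (SE 0.13) in lox/lox and -0.18 (SE 0.13) in Nex mice, or -0.24 and 0.03 without surrogate variables.

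**Figure D2:**
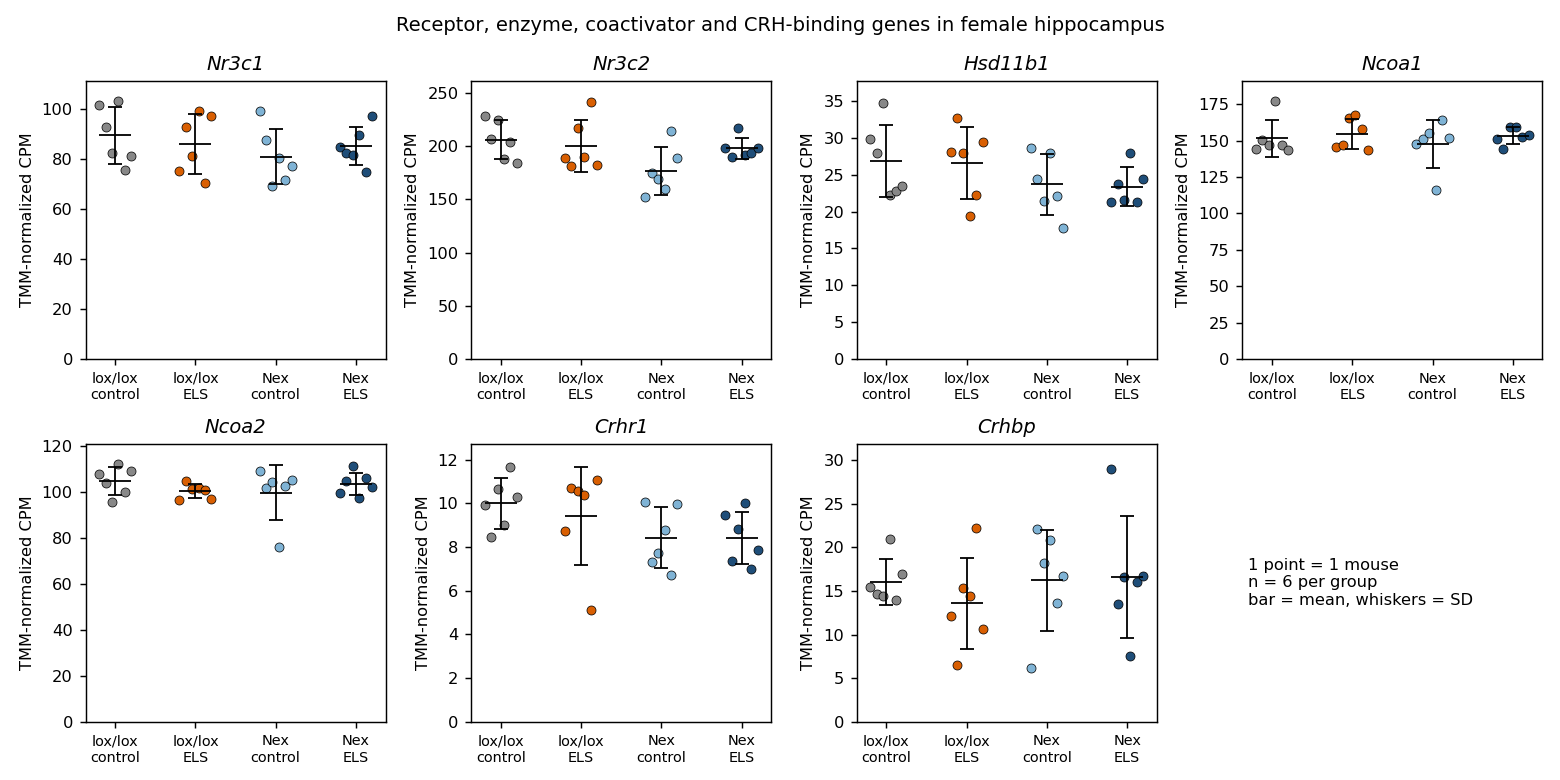
TMM-normalized CPM of the 7 genes in each of 24 mice (points), with the mean and SD of each group of 6 (bars). The groups overlap in every panel, Nex control mice lie lowest for *Nr3c2* with a mean of 176 CPM, and *Crhbp* runs from 6.14 to 29.0 CPM.

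Set together, 0 of the 7 genes passed a false discovery rate (FDR) of 0.02 for genotype, where 0.136% of all tested genes did (22 genes, *Fkbp5* among them). At an unadjusted p under 0.05, 2 of the 7 passed for genotype (*Nr3c2* and *Crhbp*), beside 11.4% of all tested genes. For ELS in lox/lox mice, ELS in Nex mice and the interaction, 0 of the 7 genes and 0% of all tested genes passed the FDR, and at an unadjusted p under 0.05 the count of the 7 was 0 in each, where 4.98%, 2.76% and 3.95% of all tested genes passed. DESeq2 also called 0 of the 7 in all 4 comparisons, against 0.407%, 0.00617%, 0% and 0% of all tested genes in the same order. The genotype value was below 0 for 6 of the 7 genes (51% of all tested genes) with a median of -0.09, and the ELS value in lox/lox mice was below 0 for 5 of the 7 (48.8%) with a median of -0.07. The median over all tested genes was -0.0017 and 0.0025 in these comparisons. In Nex mice the ELS value was below 0 for 2 of the 7 (48%) with a median of 0.02, and the interaction was below 0 for 5 of the 7 (49.9%) with a median of -0.07. The 4 comparisons use the same 24 mice and are not independent of each other.

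**Figure D3:**
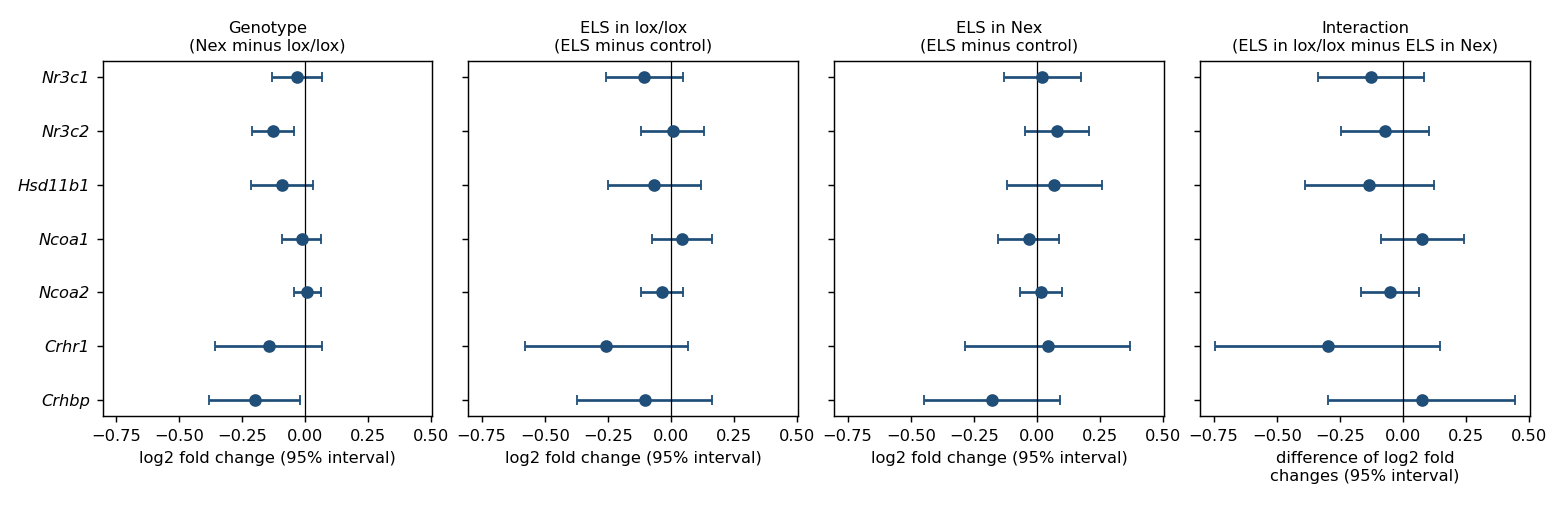
Log2 fold change of each gene (points) with its 95% interval (bars) for genotype, ELS in each genotype and the interaction, from the model with surrogate variables. The intervals exclude 0 for *Nr3c2* and *Crhbp* in the genotype panel and include 0 for all 7 genes in the other panels; they are narrowest for *Ncoa2* and widest for *Crhr1* and *Crhbp*.

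Other genes of the same pathways gave no calls either. Of 36 genes in 5 lists, 30 had enough counts to be tested. Those left out were the urocortins *Ucn*, *Ucn2* and *Ucn3*, the inactivating enzyme *Hsd11b2*, the corticosteroid-binding globulin gene *Serpina6* and the oestrogen receptor *Esr2*, each with at most 14 counts in any mouse. In the 4 comparisons, 0 of the 30 passed the FDR of 0.02 by edgeR's quasi-likelihood test. Of all tested genes, 0.136% passed for genotype and 0% in the other comparisons. An unadjusted p under 0.05 came in 3 of the 120 tests. The shares of all tested genes at that level were 11.4% (genotype), 4.98% (ELS in lox/lox mice), 2.76% (ELS in Nex mice) and 3.95% (interaction).

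Among the CRH family, *Crh* itself was measured at 18 to 50 counts per mouse, and *Crhr2* was the only other testable member of the 5. The interaction of *Crh* was -0.48 (SE 0.30), wide enough to include 0 (95% interval from -1.10 to 0.14). Among 5 testable genes of corticosteroid metabolism and transport, *Abcb1a*, which encodes an efflux pump, was highest per length at 4.37 CPM per kb. *H6pd*, which supplies the cofactor of the *Hsd11b1* enzyme, had an ELS value of 0.20 (SE 0.12) in lox/lox mice. Of 12 further coactivators, *Smarca4*, a chromatin remodelling ATPase, was highest at 21.3 CPM per kb, and *Med1*, a Mediator subunit, had an ELS value of -0.08 (SE 0.04, adjusted p = 0.938 by edgeR's quasi-likelihood test) in lox/lox mice.

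Of 8 corepressors, *Hdac3*, the deacetylase of the NCoR complex, was highest per length at 21.6 CPM per kb and also had the smallest p of its list, with a genotype value of -0.05 (SE 0.03, adjusted p = 0.501 by edgeR's quasi-likelihood test), the lowest adjusted p of all 120 tests. Of the 4 other steroid receptors listed, 3 were testable and 0 passed the FDR in any comparison, beside the shares of all tested genes given above.

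Some of the 7 genes varied with cell type markers between mice of the same group. All 7 were set against scores of 10 marker lists, on deviations from the group means. This gave 70 relations over 24 mice, tested with 100000 permutations within groups and adjusted over the 70. By Pearson's r, 9 of the 70 had an adjusted p under 0.05: 6 with *Nr3c1*, 2 with *Crhbp* and 1 with *Hsd11b1*. For *Nr3c2*, *Ncoa1*, *Ncoa2* and *Crhr1* the count was 0. By Spearman's rho 4 of the 70 passed. The scores themselves are not independent, since 20 of 45 pairs of scores were related at an adjusted permutation p under 0.05. The astrocyte and microglia scores had r = 0.93, and the dentate granule and choroid plexus scores r = -0.75. The oligodendrocyte score had r = 0.75 with that of CA2 and CA3 and 0.74 with that of choroid plexus. Choroid plexus and astrocyte scores had r = -0.66. Most of the 6 scores related to *Nr3c1* were thus related to each other, and its 6 relations are not separate results. No batch is named in the labels or methods, and values within batches could not be given.

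**Figure D4:**
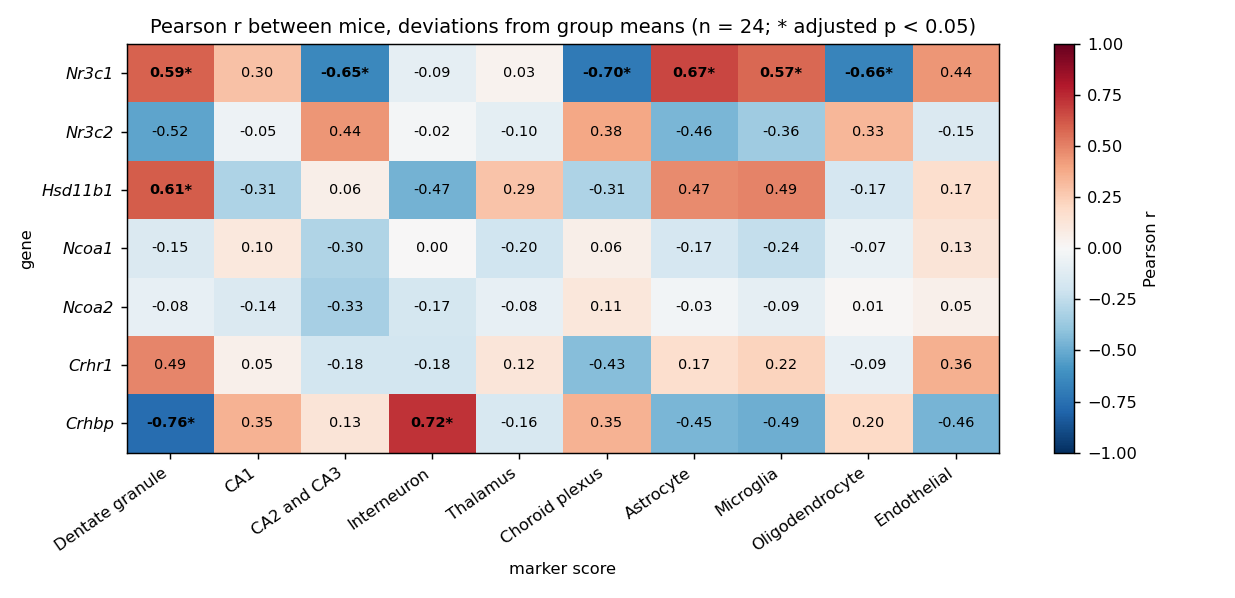
Pearson r of each gene (rows) with each marker score (columns) over 24 mice, on deviations from group means; an asterisk marks an adjusted permutation p under 0.05. *Nr3c1* carries 6 of the 9 marked relations, and the largest positive r, 0.72, joins *Crhbp* to the interneuron score.

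*Nr3c1* was higher in mice with more astrocyte marker RNA. The relation with the score of 6 astrocyte markers had r = 0.67 (permutation p = 0.00019, adjusted 0.00665; rho 0.67, permutation p = 0.00043, adjusted 0.0151), and had r = 0.54 without the pair of mice farthest from the median (mice 42 and 12). It passed in 24 of 24 runs that left out 1 mouse. Within single groups r was 0.87 in lox/lox control, 0.48 in lox/lox ELS, 0.97 in Nex control and 0.33 in Nex ELS mice, the same sign in 4 of 4 groups but of uneven size. All 6 markers were measured in every mouse, and their summed level ranged from 1371 to 1999 CPM in lox/lox control, from 1472 to 1767 in lox/lox ELS, from 1371 to 3749 in Nex control and from 1304 to 2065 in Nex ELS mice. With the microglia score, which moves with that of astrocytes, r was 0.57 (permutation p = 0.00273, adjusted 0.0273; rho 0.55, permutation p = 0.00612, adjusted 0.0826), with r = 0.41 without mice 12 and 42, and it passed in 20 of 24 runs. Within the same groups r was 0.68, 0.48, 0.94 and 0.13. Whether r differs between groups was not tested.

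*Nr3c1* was lower in mice with more choroid plexus marker RNA. The relation had r = -0.70 (permutation p = 0.00096, adjusted 0.0168; rho -0.71, permutation p = 0.00073, adjusted 0.0170), had r = -0.66 without mice 74 and 42, and passed in 24 of 24 runs. Within single groups r was -0.56 in lox/lox control, -0.92 in lox/lox ELS, -0.88 in Nex control and -0.21 in Nex ELS mice. The score holds 4 of 7 listed markers. Their summed level ranged from 20.1 to 4523 CPM in lox/lox control, from 26.5 to 1474 in lox/lox ELS, from 18.01 to 3372 in Nex control and from 22.9 to 1483 in Nex ELS mice. Within the score, *Clic6* fell to 0.0455 CPM and *Ttr* to 0.227 CPM, so both were near 0 in at least 1 mouse. *Folr1*, a choroid plexus marker that was not tested, was at 0 in at least 1 mouse. With the oligodendrocyte score of 6 markers, r was -0.66 (permutation p = 0.00162, adjusted 0.0189; rho -0.64, permutation p = 0.00238, adjusted 0.0417), with r = -0.52 without mice 44 and 12 and 21 of 24 runs passing. Within single groups of 6 mice, r was -0.94 in lox/lox control, -0.23 in lox/lox ELS, -0.95 in Nex control and -0.20 in Nex ELS mice. A difference in r between control and ELS mice was not tested.

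*Nr3c1* was also related to markers of hippocampal fields. With the CA2 and CA3 score r was -0.65 (permutation p = 0.00142, adjusted 0.0189; rho -0.58, permutation p = 0.00708, adjusted 0.0826), and r was -0.50 without mice 12 and 44; 22 of 24 runs passed, and within single groups r was -0.74, -0.62 and -0.90 in lox/lox control, lox/lox ELS and Nex control mice but 0.03 in Nex ELS mice. With the dentate granule score r was 0.59 (permutation p = 0.00627, adjusted 0.0488; rho 0.56, permutation p = 0.0113, adjusted 0.0893). It was 0.45 without mice 8 and 12 (permutation p = 0.0519), 0.47 without mouse 12 alone and 0.59 without mouse 8 alone, so the fall came with mouse 12. It passed in 4 of 24 runs, and r was 0.51 without mouse 72. Within single groups r was 0.43, 0.72, 0.77 and 0.09 in the order of the groups above.

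*Hsd11b1* was higher in mice with more dentate granule marker RNA, with r = 0.61 (permutation p = 0.00440, adjusted 0.0385; rho 0.54, permutation p = 0.0125, adjusted 0.0893). Within lox/lox control, lox/lox ELS, Nex control and Nex ELS mice r was 0.33, 0.54, 0.82 and 0.73. Without mice 8 and 12 r was 0.48 (permutation p = 0.0381), and 9 of 24 runs with a mouse left out passed. The 6 dentate markers summed to between 274 and 459.8 CPM in lox/lox control, 230 and 902 in lox/lox ELS, 131 and 649 in Nex control and 154 and 477 in Nex ELS mice. Their medians were lower in both Nex groups, but the ranges overlapped. The score was not tested between genotypes, nor was its part in the genotype value of *Hsd11b1*.

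*Crhbp* was higher in mice with more interneuron marker RNA, the relation with the smallest p of the 70. It had r = 0.72 (permutation p = 0.00010, adjusted 0.00665; rho 0.72, permutation p = 0.00032, adjusted 0.0151), the same sign in 4 of 4 groups, and r = 0.70 without mice 54 and 8. It passed in 24 of 24 runs with r between 0.67 and 0.76. Within single groups r was 0.70, 0.82, 0.77 and 0.72 in lox/lox control, lox/lox ELS, Nex control and Nex ELS mice. The score holds all 8 listed markers, among them *Gad1*, an enzyme of GABA synthesis, at 357 to 483 CPM, and *Sst*, the neuropeptide somatostatin, at 69.2 to 164 CPM. The summed level of the 8 was far more even between mice than *Crhbp*, from 798 to 1038 CPM in lox/lox control, 788 to 957 in lox/lox ELS, 776 to 975 in Nex control and 842 to 1064 in Nex ELS mice.

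*Crhbp* was lower in mice with more dentate granule marker RNA, with r = -0.76 (permutation p = 0.00076, adjusted 0.0168) and rho = -0.53 (permutation p = 0.0154, adjusted 0.0944). Without mice 8 and 12, which had the lowest *Crhbp* and the highest dentate scores of all 24 mice, r was -0.51 (permutation p = 0.0403). The sign held in 3 of 4 groups, with r = 0.30 in lox/lox controls. The relation was lost without mouse 12 (adjusted p = 0.102 by permutation) and passed in the other 23 runs. The part of the dentate markers in the genotype value of *Crhbp*, which reversed without surrogate variables, was not tested.

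**Figure D5:**
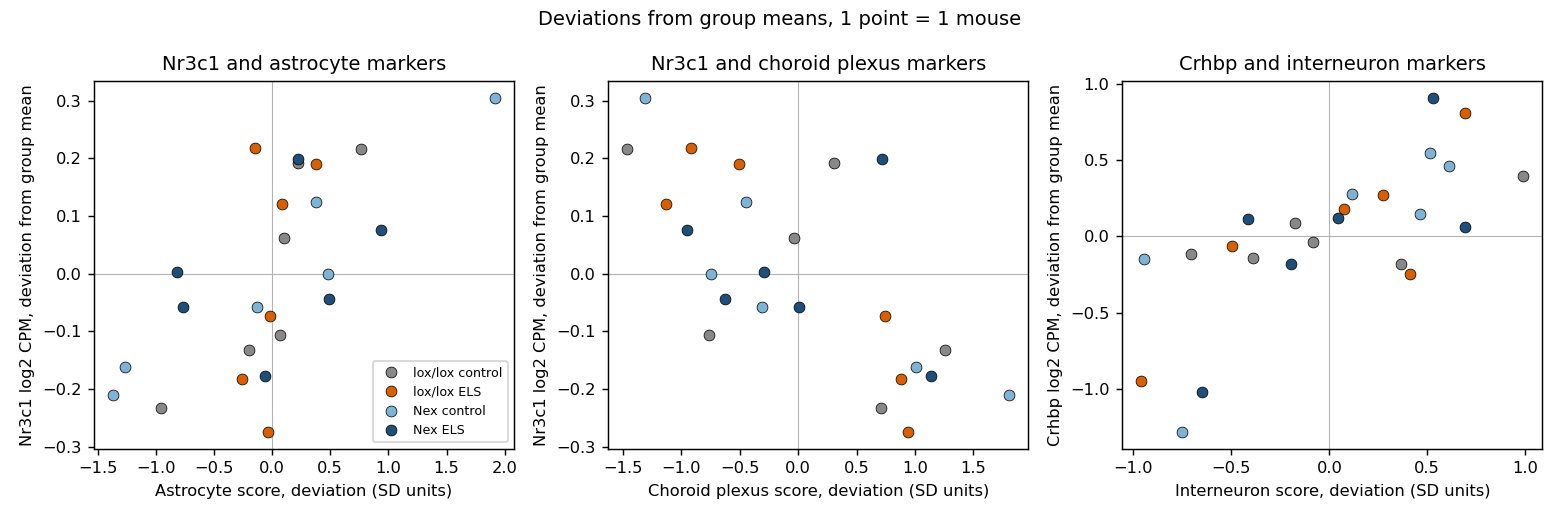
Log2 CPM of *Nr3c1* against the astrocyte and choroid plexus scores and of *Crhbp* against the interneuron score, all as deviations from group means; each point is 1 of 24 mice, coloured by group. *Nr3c1* rises with the astrocyte score (r = 0.67) and falls with the choroid plexus score (r = -0.70), and *Crhbp* rises with the interneuron score (r = 0.72).

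Among themselves, the 7 genes gave 21 pairs, and 0 had an adjusted permutation p under 0.05. The largest r joined the coactivators *Ncoa1* and *Ncoa2* (r = 0.69, permutation p = 0.0267, adjusted 0.228; rho 0.45, permutation p = 0.0314), and r was 0.36 without the pair of mice farthest from the median of *Ncoa1*. *Hsd11b1* and *Crhbp* had r = -0.54 (permutation p = 0.00913, adjusted 0.192; rho -0.53, permutation p = 0.0113), and the receptors *Nr3c1* and *Nr3c2* had r = -0.44 (permutation p = 0.0652, adjusted 0.228; rho -0.33, permutation p = 0.161).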

How the data were processed

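Groups came from the sample labels, and the mouse number in each column name tied it to a sample. The values that the authors deposited are raw read counts for each gene. Their sequencing provider aligned read pairs with HISAT2 2.0.5 and counted them with featureCounts 1.5.0-p3. Genome build, annotation, strandedness and the treatment of multi-mapping reads are not given in the sources used here, so reads in overlapping genes are uncertain. The column totals (18347283 to 26555623) set the counting error. Positions and exonic lengths were taken from GENCODE vM21 (GRCm38) by Ensembl identifier for 46488 of 46983 genes.

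From the counts, genes reaching 10 counts in all mice of any 1 group were tested with edgeR 4.0.16 (TMM, quasi-likelihood test, R 4.3.3), with 4 group means and 5 surrogate variables from sva 3.50.0, and an FDR of 0.02 (Benjamini-Hochberg). The groups explained 3.31% to 23% of the variance of a surrogate variable. On simulated data with 200 genes changed by a log2 of 1, the step recovered 195 for genotype, 186 for ELS in lox/lox mice and 166 for the interaction, with 2, 8 and 2 false calls among 16075, 16066 and 16078 genes. Those data needed 0 surrogate variables, so recovery in the real data can be lower. Log2 CPM used a prior count of 2. A marker score is the mean z-score of the tested genes of a list. Relations were tested two-sided with Python 3.11.15 and numpy 2.4.6, and with 20000 permutations where a mouse was left out. DESeq2 1.42.0, its size factors, no filter, no surrogate variables, an FDR of 0.05 and leaving out each mouse were tried as alternatives.

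The 7 genes and all lists were chosen with earlier results of these data known. The text names the 7 genes, *Fkbp5* as a check of genotype, and of each pathway list every gene past the FDR, the gene with the smallest p and the gene with the highest level per length. It also names, for each of the 7, the 3 genes most like it. *Crhr2*, the genes that could not be tested and a few markers are named beside these. *Prmt1* had no length in the annotation and no level per kb. 1 gene that this rule names is not reported here.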

Additional observations from a re-analysis of the deposited data

Results flagged for a closer look

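In 28 groups of 6 mice (7 genes in 4 groups), 4 held a mouse far from the other mice of its group by Dixon's criterion at the 95% level, where chance gives about 1 in 20. Mouse 52 (Nex control) was low for both coactivators, at 116 CPM for *Ncoa1* and 76.0 CPM for *Ncoa2*. Mouse 44 (lox/lox control) was high for *Ncoa1*, at 177 CPM, and mouse 58 (Nex ELS) was high for *Nr3c2*, at 217 CPM. The cause was not tested in any of the 4.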

How the results depend on the processing

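The count of the 7 genes past the test stayed at 0 in all 4 comparisons under every alternative. The direction of single values was less stable. Without surrogate variables the log2 fold change turned to -0.013 for *Ncoa2* and 0.16 for *Crhbp* (genotype), to -0.041 for *Nr3c2* (ELS in lox/lox mice), to -0.022 for *Hsd11b1*, 0.055 for *Ncoa1*, -0.0012 for *Crhr1* and 0.033 for *Crhbp* (ELS in Nex mice), and to 0.012 for *Hsd11b1*, -0.027 for *Ncoa1* and -0.28 for *Crhbp* (interaction). Without the filter on low counts *Nr3c2* turned to -0.0015 (ELS in lox/lox mice). With 1 mouse left out, values that changed sign ran from -0.0042 to 0.019 for *Ncoa2* and from -0.045 to 0.0068 for *Ncoa1* (genotype), from -0.089 to 0.044 for *Nr3c2* and from -0.0076 to 0.079 for *Ncoa1* (ELS in lox/lox mice), from -0.028 to 0.046 for *Nr3c1*, -0.016 to 0.19 for *Hsd11b1*, -0.077 to 0.020 for *Ncoa1*, -0.0084 to 0.027 for *Ncoa2* and -0.034 to 0.15 for *Crhr1* (ELS in Nex mice), and from -0.041 to 0.16 for *Crhbp* (interaction). Values that kept their sign could still move by over 1.5 times, as given for *Nr3c1*, *Nr3c2*, *Hsd11b1*, *Crhr1* and *Crhbp* beside the results. The cause was not tested. Of the 70 relations with marker scores, 9 passed by Pearson's r, 4 by Spearman's rho and between 3 and 9 with 1 mouse left out, an alternative chosen after seeing the data (3 without mouse 12, 4 without mouse 50, 5 without mouse 42). No paired analysis was possible because the groups share no mouse numbers. At 123 to 289 counts per mouse, depth limits *Crhr1* most of the 7 genes.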

Other observations

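For each of the 7 genes, the tested genes most like it in deviations from the group means over 24 mice are given as a description. The highest Pearson r of *Nr3c1* was with *Zmat4* (0.86), *Gm16267* (0.86) and *Egfl6* (0.84), and that of *Nr3c2* with *Kpnb1* (0.86), *Herc3* (0.85) and *Plcb1* (0.85). *Hsd11b1* was nearest to *Ssr3* (0.84), *Rps16* (0.84) and *Rpl22* (0.83), the last pair encoding ribosomal proteins. *Ncoa2* had the closest neighbours, with *Zfp398* (0.91), *Whsc1l1* (0.91) and *Prrc2c* (0.91), and *Ncoa1* was nearest to *Fry* (0.88), *Srrm2* (0.88) and *Shank2* (0.87). *Crhbp* was nearest to *Ppp2r2b* (0.90), *Usp46* (0.89) and *Trpc4* (0.89), whereas *Crhr1*, the gene with the fewest counts, reached only 0.75 with *Dmtn*, 0.72 with *Sun2* and 0.70 with *Cys1*. These values were picked as the highest among 16209 genes in the same 24 mice and share their library, depth and tissue makeup.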
